A study of Mus musculus with 16 samples.

Results

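The genes of the ID proteins (Id1, Id2 and Id3) and of their E-protein partners (Tcf3, Tcf4 and Tcf12) were followed across 4 subpopulations of cMyc+ germinal center (GC) B cells from mouse spleen. The 6 genes were taken by symbol out of 51912 genes in the deposited table, and 5 of them were among the 12505 that were tested, for which a mean of 10 or more over all libraries was required. Id1 was under this limit. Total RNA was sequenced in 16 libraries, 4 per subpopulation, from cMyc gfp/gfp reporter mice on a C57BL/6J background, in which a GFP-cMyc fusion is made from the endogenous cMyc locus. All groups shared this allele and 1 regimen, in which male and female animals of 6 to 15 weeks received sheep red blood cells (SRBC) intraperitoneally and spleens were taken after 7 days. All cells were depleted of CD43+ cells and sorted as B220+ CD38low CD95+ cMycGFP+. The cMyc+ prePB gate then took CD69hi cells without regard to dark or light zone, whereas the light zone gates took CD23hi CD21/35hi cells (cMyc+ early), CD23int CD21/35int cells (cMyc+ lateCD23int) and CD23lo CD21/35lo cells (cMyc+ lateCD23lo). The labels do not say whether libraries came from separate animals, so that p-values measure only the spread between these libraries.

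E-proteins are basic helix-loop-helix transcription factors that bind E-box DNA as dimers and drive much of the B cell program. ID proteins have the helix-loop-helix with which they pair with E-proteins but lack the basic region that contacts DNA, and so hold E-proteins off DNA. Id3 is known as the ID gene of activated and GC B cells, where it restrains E-protein activity, and Id2 is best known from innate lymphoid, natural killer (NK) and T cells and is also expressed in B cells.

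Libraries held 19812080 to 25795815 recovered reads. Values are normalized counts, that is reads divided by 1 size factor per library, and 3 reads, the limit under which a gene is treated as not detected, correspond to 2.48 to 3.23 normalized counts. The B cell list and the GC B cell list were detected in full, at 6 of 6 and 7 of 7 genes, and their summed normalized counts were 98334 to 235354 and 29324 to 60134 per library. In the NK and innate lymphoid list, 4 of 5 genes exceeded 3 reads in any library, the sum did not exceed 75.7, and Ncr1 was at 0 in all 16 libraries. The T cell list summed to 2163 to 6943, of which Lck had 2157 to 6839, and Cd3e, Cd3d, Cd3g, Cd4 and Cd8a did not exceed 73.9 each. In the plasma cell list, all 6 genes exceeded 3 reads in at least 1 library. Its sum was 37257 to 111293 in cMyc+ prePB and 23488 to 90119 in the other groups. Most of this sum was Jchain, whose mean was highest for cMyc+ lateCD23lo (64836) and lowest for cMyc+ early (23623). Sdc1 and Tnfrsf17 exceeded 3 reads in 3 and 1 of the 16 libraries. Prdm1 had a mean of 82.9 for cMyc+ lateCD23lo, 80.7 for cMyc+ lateCD23int, 35.2 for cMyc+ prePB and 2.74 for cMyc+ early. The remaining genes of the list had their highest mean for cMyc+ prePB. It was 4820 there for Xbp1 (3599 to 4250 in the other groups) and 729 for Irf4 (596 to 720). For Sdc1 it was 27.4 (0.49 to 13.2) and for Tnfrsf17 6.09 (0 in the other groups).

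Id3 was the most abundant of the 6 genes, and its level was lowest in cMyc+ prePB. On the scale of normalized counts per kb of merged exons, the mean over all libraries was 1530 for Id3, 353 for Id2, 213 for Tcf4, 111 for Tcf3, 57.1 for Tcf12 and 6.50 for Id1. Tcf4 and Tcf12 have many alternative exons (27382 and 15529 bases of merged exons), and per kb of the longest transcript Tcf4 came to 679, above Id2 at 437, while Id3 stayed first at 2140. The order of Id2 and Tcf4 therefore depends on the length used. In GRCm38 Id1 lies at chr2:152736251-152737410, Id2 at chr12:25093799-25097140, Id3 at chr4:136143497-136145755, Tcf3 at chr10:80409514-80433647 and Tcf12 at chr9:71842688-72111871.

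The helix-loop-helix is the part through which both families pair, and it is shown here because reads from such shared sequence could in principle be counted to the wrong member. The 120-base window of the coding sequences with the most bases identical in Id1, Id2 and Id3 held 77 identical bases (64.2%), and it encodes part of this domain. Capitals mark bases identical in all 3 genes.
Id1, chr2:152736518-152736637, plus strand: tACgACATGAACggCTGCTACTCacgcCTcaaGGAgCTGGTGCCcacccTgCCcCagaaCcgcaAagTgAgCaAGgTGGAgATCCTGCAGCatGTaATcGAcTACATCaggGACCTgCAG
Id2, chr12:25095783-25095902, minus strand: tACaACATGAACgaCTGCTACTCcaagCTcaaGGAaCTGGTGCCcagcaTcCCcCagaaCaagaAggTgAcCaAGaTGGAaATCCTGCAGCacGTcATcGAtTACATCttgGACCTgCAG
Id3, chr4:136144002-136144121, plus strand: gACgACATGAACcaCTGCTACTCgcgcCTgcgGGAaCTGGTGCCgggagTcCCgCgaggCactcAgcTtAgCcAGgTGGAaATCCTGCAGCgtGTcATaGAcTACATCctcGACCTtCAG
Within this window Id1 and Id2 shared 98 bases (81.7%), Id2 and Id3 shared 86 (71.7%), and Id1 and Id3 shared 85 (70.8%). Each ID window lies in 1 coding exon of GENCODE vM21 on GRCm38.

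The window with the most identical bases in Tcf3 and Tcf12 held 95 of 120 (79.2%), and capitals mark the bases that are the same in both. It spans 2 coding exons in each gene, so that the coordinates include an intron.
Tcf3, chr10:80410234-80412905, minus strand: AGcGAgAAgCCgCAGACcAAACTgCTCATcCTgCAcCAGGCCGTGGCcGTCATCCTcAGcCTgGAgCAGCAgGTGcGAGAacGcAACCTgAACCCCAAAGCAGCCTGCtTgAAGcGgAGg
Tcf12, chr9:71849885-71856383, minus strand: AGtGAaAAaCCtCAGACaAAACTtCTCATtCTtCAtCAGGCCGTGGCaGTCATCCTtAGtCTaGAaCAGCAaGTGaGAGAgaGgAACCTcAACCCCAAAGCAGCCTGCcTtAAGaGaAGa
In all annotated transcripts, no stretch of 50 bases was shared between any of the 6 genes. Id1, Id3 and Tcf3 shared none with any other gene either, Id2 shared 8 of its 2433 such stretches with Gm6175, and Tcf4 and Tcf12 shared 0.217% each with other genes. No annotated gene overlaps Id1, Id2, Id3 or Tcf3, 1 overlaps Tcf4, and 11 overlap Tcf12, none of them protein coding and 4 on the opposite strand.

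Id3, the main ID gene of these cells, fell in cMyc+ prePB. Its normalized counts were 1672, 1359.6, 1679 and 1079 in replicates 1 to 4 of cMyc+ prePB and 3676, 3296, 3407 and 1875 in cMyc+ early. They were 4921, 3624, 3219 and 2908 in cMyc+ lateCD23int, and 4332, 2231, 2801 and 1751 in cMyc+ lateCD23lo. All 4 cMyc+ prePB libraries lay below the other 12, by a narrow margin at cMyc+ lateCD23lo replicate 4 and cMyc+ early replicate 4. Replicate 4 was the lowest library of each of the 4 groups. Such a separation downwards was found for 33 tested genes (0.264%), and upwards for 41 (0.328%), with no member among the latter. The mean was 1448 ± 287 for the cMyc+ prePB libraries, compared with 3668 ± 885 for cMyc+ lateCD23int, 3064 ± 808 for cMyc+ early and 2779 ± 1121 for cMyc+ lateCD23lo (SD, n = 4 each).

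**Figure D1:**
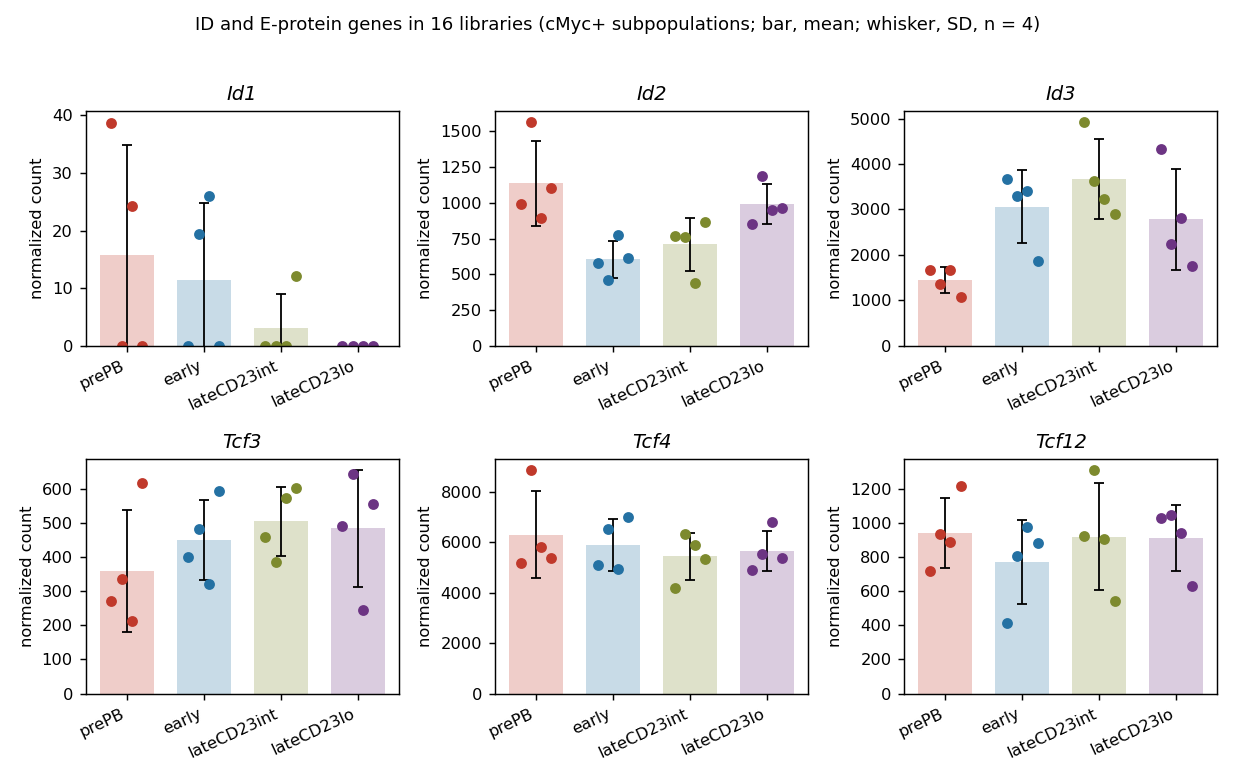
Normalized counts of the 6 genes (vertical axes, linear, starting at 0) in the 4 cMyc+ subpopulations, with 1 point per library, bars for means and whiskers for the SD of 4 libraries. The 4 cMyc+ prePB libraries are at 1079 to 1679 for Id3, below the other 12, while Tcf3, Tcf4 and Tcf12 overlap between all groups.

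Against the mean of the other 3 subpopulations, the log2 fold change of Id3 in cMyc+ prePB was -1.09 (SE 0.22, 95% interval -1.55 to -0.63, limma adjusted p = 0.0352). It was 1 of 5 tested members called in this comparison, in which 39 of all tested genes (0.312%) were called, 13 higher (0.104%) and 26 lower (0.208%). The call was close to its threshold. With the edgeR quasi-likelihood test on the recovered reads, Id3 had a log2 fold change of -1.12 and an adjusted p of 0.0572, and that test called 36 genes, 22 higher and 14 lower. The adjusted p was 0.0872 with no filter on low values and 0.133 with a prior without trend. With a replicate block, which treats same-numbered libraries as paired, limma called Id3 and 211 of all tested genes.

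The log2 fold change of Id3 stayed between -1.17 and -0.96 when each library was left out in turn, and the adjusted p of limma ranged from 0.0143 to 0.19. It passed the threshold in 7 of these 16 fits. The adjusted p was 0.122, 0.0631 and 0.19 without cMyc+ prePB replicates 2, 3 and 4, and 0.0551, 0.0566 and 0.0637 without cMyc+ early replicates 1, 2 and 3. It was 0.0543 and 0.0583 without cMyc+ lateCD23int replicates 1 and 2, and 0.0645 without cMyc+ lateCD23lo replicate 3.

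In the pairwise comparisons, which share the cMyc+ prePB libraries, Id3 was nearest to the threshold against cMyc+ lateCD23int (log2 fold change -1.33, 95% interval -1.90 to -0.77, limma adjusted p = 0.0573). Against cMyc+ early its log2 fold change was -1.06 (interval -1.62 to -0.49, limma adjusted p = 0.169), and against cMyc+ lateCD23lo -0.88 (interval -1.45 to -0.32, limma adjusted p = 0.191). Ordered by mean level, Id3 went from cMyc+ lateCD23int through cMyc+ early and cMyc+ lateCD23lo to cMyc+ prePB. No difference between neighbours in this order passed the test without a replicate block. With the block, the difference of cMyc+ prePB from cMyc+ lateCD23lo passed. Among the 3 light zone groups the log2 differences were -0.28 (cMyc+ early against cMyc+ lateCD23int), 0.18 (cMyc+ early against cMyc+ lateCD23lo) and 0.45 (cMyc+ lateCD23int against cMyc+ lateCD23lo), with adjusted p of 0.827 or more.

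Levels of general B cell transcripts moved with Id3. The summed level of the B cell list (6 genes, among them Cd79a and Ms4a1, and none at 0) was 98334 to 141889 in cMyc+ prePB and 124553 to 235354 in the other 3 groups. The naive or memory B cell list (6 of 6 genes detected) summed to 1676 to 3172 in cMyc+ prePB, below all of cMyc+ early at 3664 to 8432, and overlapped with the other 2 groups at 2162 to 5308. The GC B cell list was at 29324 to 39297 in cMyc+ prePB, below all of cMyc+ lateCD23int at 40741 to 60134, and overlapped with cMyc+ early and cMyc+ lateCD23lo at 31525 to 51394. Over the 16 libraries the genes most like Id3 in pattern were Sp140 (Pearson r of log2 values 0.93), Cd79a, a subunit of the B cell receptor (0.93), and Sypl (0.92). The part of these lists in the difference of Id3 was not tested. In these bulk samples, fewer cells of a type and less RNA per cell cannot be told apart.

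Id2, the second ID gene by level per kb of merged exons, had its highest mean levels in cMyc+ prePB and cMyc+ lateCD23lo. Its normalized counts in replicates 1 to 4 were 989.8, 1565, 893 and 1103 in cMyc+ prePB and 577, 459, 773 and 616 in cMyc+ early. They were 768, 762, 439 and 869 in cMyc+ lateCD23int and 855, 1186, 953 and 964 in cMyc+ lateCD23lo. All cMyc+ prePB libraries exceeded all cMyc+ early and cMyc+ lateCD23int libraries, but overlapped with cMyc+ lateCD23lo, and the latter exceeded cMyc+ early without overlap. The cMyc+ prePB replicate 2 was the highest of the 16 libraries.

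Id2 passed no test at an adjusted p under 0.05. Its log2 fold change in cMyc+ prePB against the other 3 groups was 0.59 (SE 0.21, 95% interval 0.16 to 1.02, limma adjusted p = 0.279). It was 0.90 against cMyc+ early (interval 0.37 to 1.43, limma adjusted p = 0.227), 0.69 against cMyc+ lateCD23int (0.16 to 1.22, adjusted p = 0.428) and 0.18 against cMyc+ lateCD23lo (-0.35 to 0.71, adjusted p = 0.806). The log2 difference of cMyc+ early from cMyc+ lateCD23lo was -0.72 (-1.25 to -0.19, limma adjusted p = 0.32). By mean level Id2 went from cMyc+ prePB (1137 ± 297) through cMyc+ lateCD23lo (989 ± 140) and cMyc+ lateCD23int (709.7 ± 187) to cMyc+ early (606 ± 129; SD, n = 4 each), and no difference between neighbours passed the test.

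Markers of NK and innate lymphoid cells, in which Id2 is abundant, had low counts in every group. Their sum was 15.3 to 75.7 in cMyc+ prePB and 0 to 62.2 in the other 3 groups. Nkg7 had a mean of 36.3 in cMyc+ prePB and of 0.23 to 4.68 in the others, whereas Klrb1c had 0.21 and 11.1 to 27.6. The part of such cells in the difference of Id2 was not tested. The T cell list summed to 2163 to 3855 in cMyc+ early and 4002 to 6943 in the other groups, and almost all of it was Lck. The genes most like Id2 over the 16 libraries were Ly6k (Pearson r 0.88), Rpl27-ps3 (0.87), a ribosomal protein pseudogene, and Txn1 (0.83), which encodes thioredoxin.

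**Figure D2:**
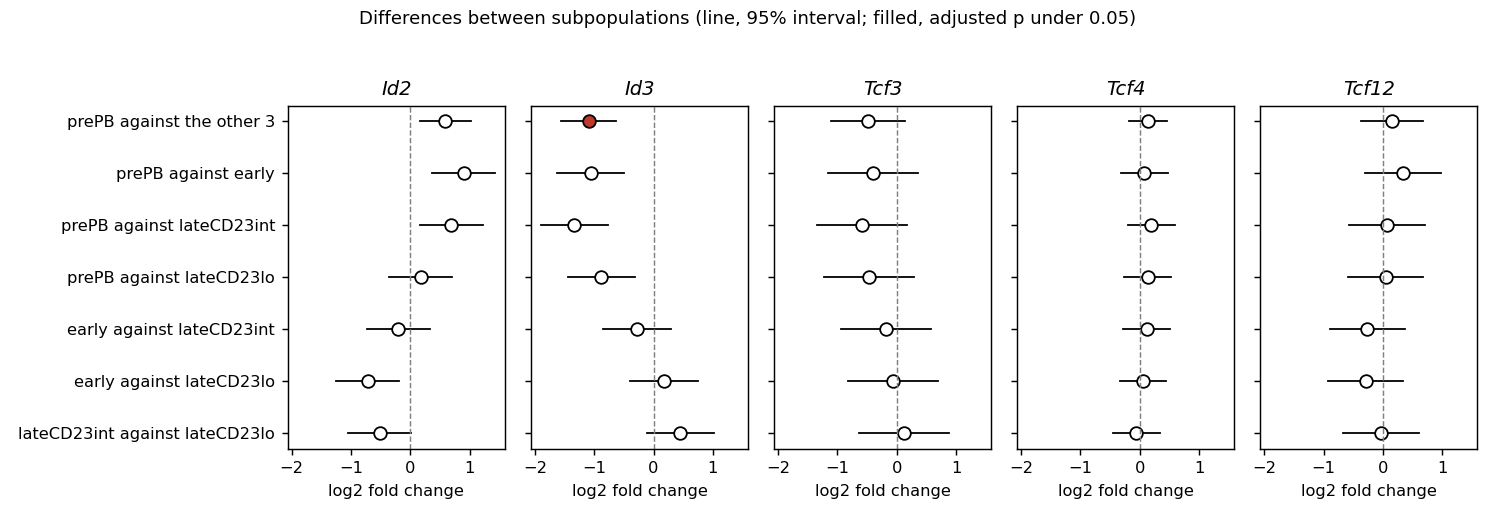
Log2 fold changes (horizontal axes) of the 5 tested members in cMyc+ prePB against the other 3 subpopulations and in 6 pairwise comparisons, with 95% intervals as lines. The filled point is Id3 at -1.09 in cMyc+ prePB against the other 3, and it is the 1 difference with an adjusted p under 0.05.

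Id1 was barely detected. It had 36 and 27 reads in cMyc+ prePB replicates 1 and 3, 22 and 27 reads in cMyc+ early replicates 2 and 3, and 13 reads in cMyc+ lateCD23int replicate 4. It was at 0 in the other 11 libraries, among them all 4 of cMyc+ lateCD23lo. A count of 0 allows a level of up to 3 reads in a library (counting error only), so that single libraries differed in Id1, and the groups were not tested. Id4, the remaining ID gene, was at 0 in all 16 libraries.

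The E-protein genes showed no difference that passed a test. Tcf4, the most abundant of them per kb, had 5169.5, 8869, 5798 and 5381 normalized counts in cMyc+ prePB, 4945 to 6988 in cMyc+ early, 4199.6 to 6346 in cMyc+ lateCD23int and 4911 to 6797 in cMyc+ lateCD23lo. All groups overlapped, and cMyc+ prePB replicate 2 stood above the other 15 libraries. The log2 fold change of Tcf4 in cMyc+ prePB against the other 3 was 0.13 (95% interval -0.19 to 0.46, limma adjusted p = 0.78), and it was -0.04 without cMyc+ prePB replicate 2.

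Tcf3 had 272, 336, 212 and 618 normalized counts in cMyc+ prePB, 320.5 to 595 in cMyc+ early, 386 to 604 in cMyc+ lateCD23int and 245 to 646 in cMyc+ lateCD23lo. Of the cMyc+ prePB libraries, replicates 1 and 3 were among the 3 lowest of all 16, together with cMyc+ lateCD23lo replicate 3, whereas replicate 4 was among the highest. The log2 fold change of Tcf3 was -0.48 (95% interval -1.10 to 0.13, limma adjusted p = 0.557), and it was -0.78 without cMyc+ prePB replicate 4. The interval thus includes both no change and a decrease of the size seen for Id3.

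Tcf12 ranged from 720.1 to 1218 in cMyc+ prePB, from 414 to 975 in cMyc+ early, from 541 to 1312 in cMyc+ lateCD23int and from 633 to 1049.8 in cMyc+ lateCD23lo, so that all groups overlapped. Its log2 fold change in cMyc+ prePB against the other 3 was 0.15 (95% interval -0.37 to 0.67, limma adjusted p = 0.856). Over the 18 pairwise tests of the 3 E-protein genes, log2 fold changes ranged from -0.59 to 0.34, and the smallest adjusted p was 0.609. No E-protein gene had groups without overlap in any pair.

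Over the 6 pairwise comparisons, limma called 0 of 30 member tests, with 6 at an unadjusted p under 0.05, and edgeR called 0 with 6 at an unadjusted p under 0.05. All 6 were tests of Id2 or Id3. Of all genes, 8.58% had an unadjusted p under 0.05 for cMyc+ prePB against cMyc+ early, 8.77% against cMyc+ lateCD23int and 12.7% against cMyc+ lateCD23lo, and 3.71% to 10.3% in the pairs without cMyc+ prePB. The share of all genes called was 0.192% for cMyc+ prePB against cMyc+ early, 0.144% against cMyc+ lateCD23int and 0.264% against cMyc+ lateCD23lo. It was 0.28% for cMyc+ early against cMyc+ lateCD23lo, and 0.008% for each of the remaining pairs. Groups did not overlap for both Id2 and Id3 in cMyc+ prePB against cMyc+ early (4.23% of all genes) and against cMyc+ lateCD23int (5.21%). Id3 alone of the members did not overlap between cMyc+ prePB and cMyc+ lateCD23lo (6.56%), nor Id2 between cMyc+ early and cMyc+ lateCD23lo (6.23%), and no member separated cMyc+ lateCD23int from cMyc+ early (2.48%) or from cMyc+ lateCD23lo (3.77%). In the F test over the 4 subpopulations, limma called 0 of 5 members and 51 of all genes (0.408%), with Id3 at an adjusted p of 0.102 and Id2 at 0.265. Both had an unadjusted p under 0.05, as did 10.2% of all genes, and edgeR called 0 of 5 members there.

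Ratios between the families were formed per library from normalized counts per kb of merged exons, as a description without a test. The sum of Id1, Id2 and Id3 over the sum of Tcf3, Tcf4 and Tcf12 was 4.54, 2.998, 4.12 and 2.47 in replicates 1 to 4 of cMyc+ prePB and 7.34, 4.995, 6.95 and 2.83 in cMyc+ early. It was 9.38, 5.67, 4.75 and 5.25 in cMyc+ lateCD23int and 7.55, 4.03, 5.29 and 3.66 in cMyc+ lateCD23lo. The cMyc+ prePB libraries lay below all 4 of cMyc+ lateCD23int and overlapped with cMyc+ early and cMyc+ lateCD23lo.

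The mean log2 ratio in cMyc+ prePB was 0.65 lower than the mean of the other 3 group means, a difference of -0.65, with a pooled within-group SD of 0.49. The E-protein sum overlapped between groups, at 302 to 467 per kb in cMyc+ prePB and 312 to 459 per kb in the other groups, whereas the ID sum was 1050 to 1400 in cMyc+ prePB and 1300 to 3060 in the others. With the geometric mean of each side, which leaves out Id1 because it is at 0 in most libraries, the difference was -0.18. Per kb of the longest transcript the ratio itself was lower, at 1.36 to 2.28 in cMyc+ prePB and 1.54 to 5.36 in the other groups, and the difference was -0.76. RNA of ID genes thus exceeded that of E-protein genes per kb in all 16 libraries under both lengths.

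**Figure D3:**
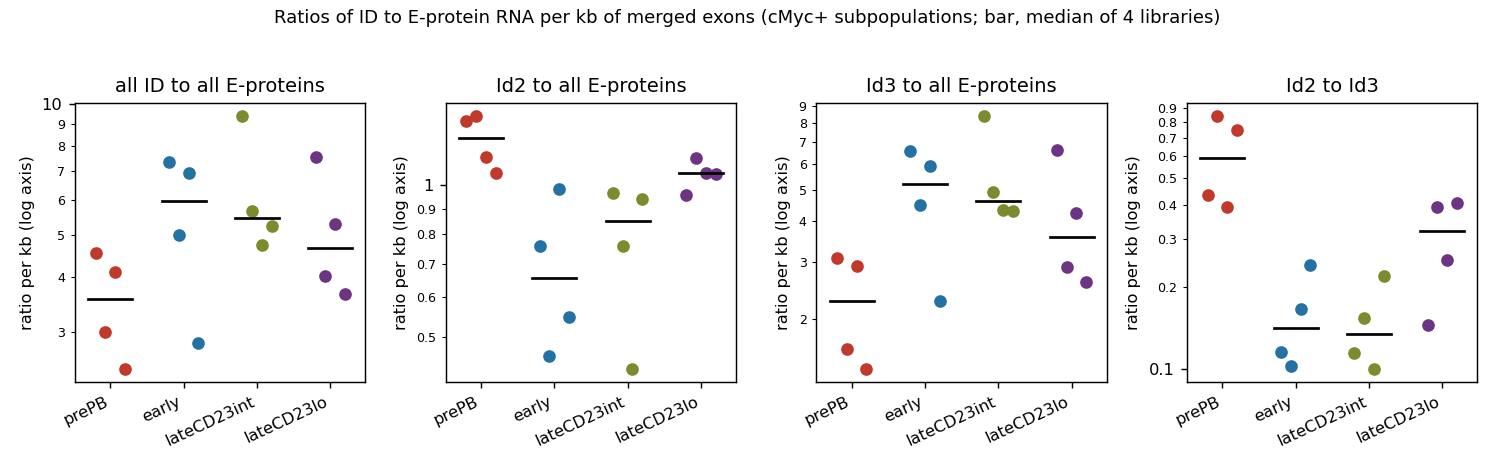
Ratios of RNA per kb of merged exons (vertical axes, logarithmic) in the 16 libraries, with 1 point per library and bars for the median of 4. The sum of ID genes over E-protein genes is 2.47 to 4.54 in cMyc+ prePB, and the ratio of Id2 to Id3 there is 0.391 to 0.845, above all libraries of cMyc+ early and cMyc+ lateCD23int.

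Relative to the E-proteins, the differences of Id2 and Id3 had opposite signs. The ratio of Id2 to the E-protein sum was 1.06 to 1.37 in cMyc+ prePB, 0.955 to 1.13 in cMyc+ lateCD23lo, 0.433 to 0.965 in cMyc+ lateCD23int and 0.460 to 0.982 in cMyc+ early. The ratio of Id3 to the same sum was 1.41 to 3.09 in cMyc+ prePB, 2.61 to 6.59 in cMyc+ lateCD23lo, 4.29 to 8.42 in cMyc+ lateCD23int and 2.28 to 6.58 in cMyc+ early. The log2 difference of cMyc+ prePB from the mean of the others was 0.61 for Id2 (pooled SD 0.38) and -1.07 for Id3 (pooled SD 0.59).

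Of the 8 ratios computed, that of Id2 to Id3 had the largest difference. It was 0.435, 0.845, 0.391 and 0.751 in replicates 1 to 4 of cMyc+ prePB and 0.115, 0.102, 0.167 and 0.241 in cMyc+ early. It was 0.115, 0.155, 0.1002 and 0.2195 in cMyc+ lateCD23int and 0.145, 0.390, 0.25 and 0.404 in cMyc+ lateCD23lo. All libraries of cMyc+ prePB exceeded those of cMyc+ early and cMyc+ lateCD23int, and 1 of its libraries was exceeded by cMyc+ lateCD23lo replicate 4. The log2 difference of cMyc+ prePB from the mean of the others was 1.68 (pooled SD 0.58), and it ranged from 1.49 to 1.87 when each library was left out in turn.

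Put as shares of the ID sum per kb, Id2 made up 27.6% to 45.8% in cMyc+ prePB, 12.7% to 28.8% in cMyc+ lateCD23lo, 9.11% to 17.9% in cMyc+ lateCD23int and 9.21% to 19.4% in cMyc+ early. Id3 made up most of the remainder, with at least 54.2% in every library, and Id1 at most 2.43%. Over the 16 libraries the Pearson r between log2 values of Id2 and Id3 was -0.57, a description over libraries that share the 4 groups. Among the other pairs of tested members, r ranged from -0.43 (Id3 and Tcf4) to 0.24 (Id2 and Tcf12).

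**Figure D4:**
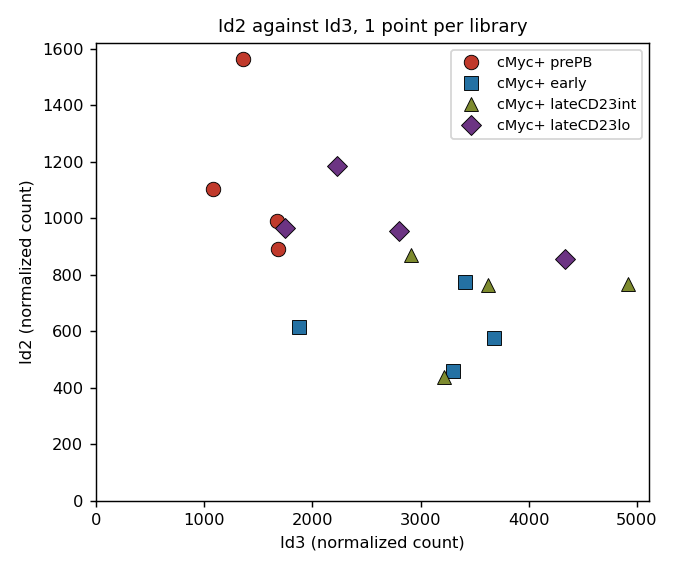
Id2 against Id3 in normalized counts (both axes linear, starting at 0), with 1 point per library and 1 symbol per subpopulation. The 4 cMyc+ prePB libraries lie at the upper left, with Id3 at 1079 to 1679 and Id2 at 893 to 1565, and the cMyc+ early and cMyc+ lateCD23int libraries lie at lower Id2 and higher Id3.

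Within the E-protein sum, Tcf4 took 45.9% to 69.3% per kb of merged exons over the 16 libraries, Tcf3 16.3% to 39.5% and Tcf12 8.54% to 20.5%. The ratio of Tcf3 to Tcf4 was 0.248 to 0.778 in cMyc+ prePB and 0.244 to 0.792 in the other groups, with a log2 difference of -0.62 (pooled SD 0.59). The ID sum relative to Tcf4 was 4.32 to 7.27 in cMyc+ prePB and 5.09 to 19.97 in the others, and relative to Tcf12 it was 13.4 to 29.6 and 22.8 to 85.9. The difference of the ratio to Tcf3 was -0.18 and turned to 0.21 without cMyc+ prePB replicate 4 and to 0.24 with geometric means. The genes most like each E-protein gene were Tmem248 for Tcf3 (Pearson r 0.79), Tmem144 for Tcf4 (0.77) and Lrrc8b for Tcf12 (0.84), followed by Phldb3, by Rsc1a1 and Gars, and by Zdhhc3 and AC153497.1 respectively. Of these, Phldb3, Tmem144, AC153497.1 and Rsc1a1 had a mean under 30 normalized counts.

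Of 52 other genes of the ID and E-protein pathway, 40 were tested. In cMyc+ prePB against the other 3, where 0.312% of all genes were called, 1 of these 40 was called. It was Vpreb3, a B cell protein related to the surrogate light chain of the pre-B cell receptor, and 1 of 16 tested genes in the list of B cell targets of E-proteins. Vpreb3 had 3504, 3436, 2623 and 2914 normalized counts in cMyc+ prePB and 5790.4, 4505, 5623 and 5031 in cMyc+ early. It had 5816, 5812, 4171 and 5129 in cMyc+ lateCD23int and 7181, 5883, 6319.6 and 6543 in cMyc+ lateCD23lo. All cMyc+ prePB libraries lay below the other 12, as for Id3. Its log2 fold change was -0.85 (95% interval -1.11 to -0.60, limma adjusted p = 0.00228), and with each library left out in turn it was called in 16 of 16 fits. The F test gave Vpreb3 an adjusted p of 0.00776, and of 0.0643 with a prior without trend.

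In this target list, limma called 0 genes higher and 1 lower in cMyc+ prePB against the other 3, compared with 0.104% and 0.208% of all genes. The median log2 fold change of the 16 tested genes of the list was -0.26, against 0.003 over all genes. An unadjusted p under 0.05 was reached by 7 of the 16, and by 1393 of all 12505 genes (11.1%). Igll1, Rag1 and Rag2, which act in early B cell development, were at 0 in all libraries. Cd79a, which was among the genes most like Id3, belongs to this list and to the B cell list.

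The lists of partners and cofactors, of inducers of ID genes and of factors of protein stability had 0 genes called by limma of 7, 12 and 5 tested, both in the F test and in cMyc+ prePB against the other 3. Of all genes, 0.408% and 0.312% were called there, so that 0 calls do not set such short lists apart. In cMyc+ prePB against the other 3, 0, 3 and 0 had an unadjusted p under 0.05, as did 11.1% of all genes, and edgeR called 0 in each. Their medians were -0.14, 0.04 and -0.23 on the log2 scale. Egr2, an immediate early factor downstream of the antigen receptor that is known to induce Id3, had the smallest F test p of the inducers (limma adjusted p = 0.174). It had 258, 789.8, 948 and 876 normalized counts in cMyc+ prePB, 182 to 815 in cMyc+ early, 305 to 1258 in cMyc+ lateCD23int and 73.9 to 232 in cMyc+ lateCD23lo. The cMyc+ lateCD23lo libraries lay below all of cMyc+ prePB and cMyc+ lateCD23int and overlapped with cMyc+ early, and the other 3 groups overlapped. Crebbp, a coactivator that E-proteins recruit, and Stub1, a ubiquitin ligase, had the smallest F test p of their lists (limma adjusted p = 0.604 and 0.524), and neither separated any group from all others. Crebbp had 4441 to 7654 and Stub1 894 to 2033 normalized counts over the 16 libraries.

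**Figure D5:**
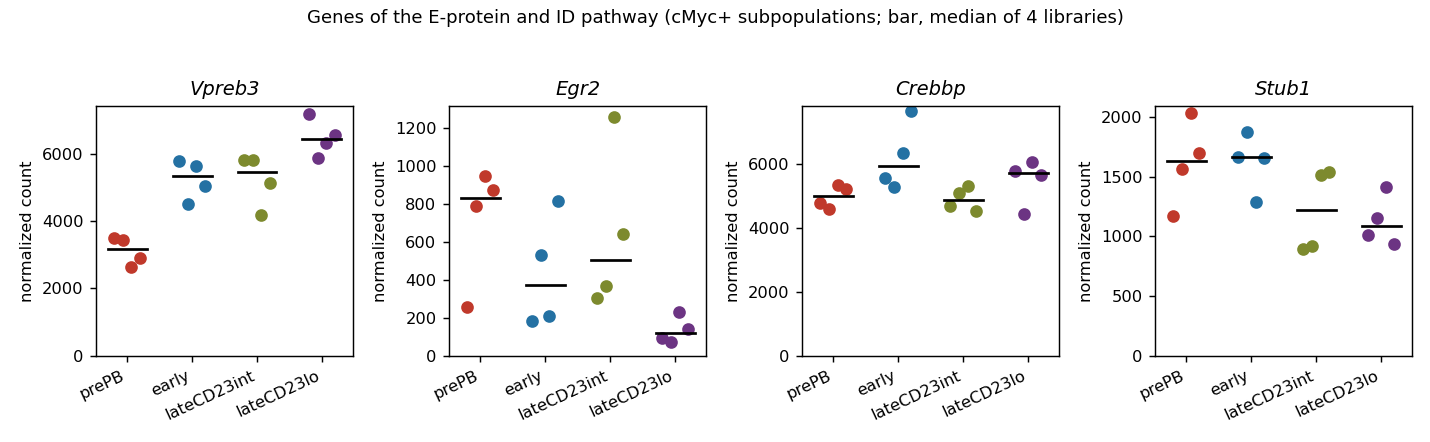
Normalized counts (vertical axes, linear, starting at 0) of 4 pathway genes in the 4 cMyc+ subpopulations, with 1 point per library and bars for the median of 4. Vpreb3 is at 2623 to 3504 in cMyc+ prePB and at 4171 to 7181 elsewhere, and Egr2 is at 73.9 to 232 in cMyc+ lateCD23lo.

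Start regions of the members were searched for 4 motifs on both strands, since E-proteins bind E-boxes and EGR factors are known inducers of Id3. In windows of 250 bases before to 50 after the RefSeq start (GRCm38.p6), the general E-box CANNTG occurred in 72.3% of 32851 windows, CAGGTG in 20.2%, CACGTG in 7.2% and the EGR motif GCGNGGGCG in 5.6%. CAGGTG and CACGTG are contained in CANNTG. Windows were found for Id2, Id3, Tcf3 and Tcf12. Id3 had no match to any of the 4 motifs, and Id2, Tcf3 and each of 3 windows of Tcf12 matched CANNTG alone, with 1 or 2 matches. The Id3 window (chr4:136143572-136143871) lies wholly within the annotated bounds of the gene, which starts at 136143497. Sequence before that start was therefore not searched for Id3. The matches of Id2 and Tcf3 are shown with the motif in capitals, at 196 and 54 bases before the start.
Id2, chr12:25096271-25096300, minus strand: aatttgccacccCAGCTGggctctcgcccg
Tcf3, chr10:80433672-80433701, minus strand: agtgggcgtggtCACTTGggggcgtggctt
These matches are a description of letters in these windows, and the Id2 stretch lies within the annotated bounds of the gene.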

How the data were processed

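Total RNA of 4 sorted cMyc+ subpopulations was sequenced in 16 libraries made with a low-input kit. The submitters' processing notes name Trimmomatic 0.36, STAR 2.5.2a, RSEM 1.2.31, DESeq2 1.20.0, R 3.5.1 and GRCm38. The deposited table holds normalized counts, a signal for which the authors divided the counts of each library by 1 size factor. Whole reads were recovered for 100% of values, within 0.01 of a whole multiple of 1 read. Tests used limma 3.58.1 in R 4.3.3 in 1 model over all libraries, with a trended prior. The fitted value was log2(normalized count + 1), a mean of 10 or more was required of a gene, and p-values were adjusted by Benjamini-Hochberg over all genes tested. Fold changes on this scale understate the change of low genes. Alternatives were pseudocounts of 0.5 and 5, other filters and scalings, a prior without trend, a replicate block, leaving out each library, and edgeR 4.0.16 on recovered reads. limma and edgeR were tested on simulated data. Id1 was not tested because of the filter. Lengths and coordinates came from GENCODE vM21 on GRCm38, promoter windows from RefSeq. Named genes were the members, the 3 genes with the most similar pattern to each, and those called in each pathway list, at most 5, or otherwise the 1 with the smallest F test p. The members and lists were chosen with earlier results of these data known. From these libraries the study reported increased Id2 and reduced Id3 in cMyc+ prePB, by a multigroup comparison with a threshold of its own. In the limma F test used here, the unadjusted p was 0.00673 for Id2 and 0.000656 for Id3, and the adjusted p was 0.265 and 0.102. Whether the calls differ through the threshold or through the test was not tested. No protein sequence was used here, and some genes that fall under these rules are not reported here.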

Additional observations from a re-analysis of the deposited data

Results flagged for a closer look

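In 4 of 72 groups of 4 libraries, 1 library stood apart from the other 3 by Dixon's criterion, and chance marks about 1 group in 20. Id1 had 12.1 normalized counts in cMyc+ lateCD23int replicate 4 and was at 0 in the other 3 libraries of that group. Tcf4 had 8869 normalized counts in cMyc+ prePB replicate 2, against 5169.5 to 5798 in the other 3. The ratio of Id3 to all E-proteins was 8.42 in cMyc+ lateCD23int replicate 1, against 4.29 to 4.91, and the ratio of all ID genes to Tcf4 was 19.97 in that library, against 9.17 to 10.2.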

How the results depend on the processing

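The direction of Id3 in cMyc+ prePB against the other 3 was the same in every alternative, but its call was not. The number of members called there fell from 1 to 0 with no filter on low values, with a prior without trend and with edgeR on recovered reads, and was 0 to 1 when each library was left out in turn, which gave 24 (without cMyc+ prePB replicate 4) to 79 (without cMyc+ prePB replicate 1) called genes. The F test called 51 genes, but 31 with no filter, 25 without trend and 29 with edgeR, and 31 (without cMyc+ prePB replicate 3) to 68 genes and 0 to 1 members (Id3 without cMyc+ lateCD23lo replicate 1) when each library was left out. Of the 30 pairwise member tests, 1 passed (Id3 in cMyc+ prePB against cMyc+ lateCD23int) with a mean of at least 50, with rescaling to the same total and with quantile normalization, and 0 to 1 when each library was left out (1 without cMyc+ early replicate 4 and without cMyc+ lateCD23lo replicates 1 and 4). The difference of the ratio of ID to E-protein genes ranged from -0.78 to -0.49 over those fits. The sign turned for Tcf4 in cMyc+ prePB without cMyc+ prePB replicate 2, with a range from -0.042 to 0.218 over these fits, and for Id3 in cMyc+ early against cMyc+ lateCD23lo without cMyc+ lateCD23lo replicate 4, with a range from -0.018 to 0.418. The cause was not tested.

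The labels number replicates alike in all groups. Deviations of same-numbered libraries correlated at -0.13 to 0.17 (mean 0.05), over 0.1 in 5 of 24 pairs. Those of differently numbered libraries had a mean of -0.017. A hint at a pairing is that 10 of 16 libraries correlated best with their own number. The labels do not say whether same-numbered libraries share animals. The main fits therefore left the numbers out, and whether libraries are paired was not settled. With the replicate block, limma called 173 genes and 1 member in the F test, 211 genes in cMyc+ prePB against the other 3 and 3 pairwise member tests, all of Id3, whose adjusted p in cMyc+ prePB against the other 3 was 0.000421 and against the neighbouring cMyc+ lateCD23lo 0.0138. The F test of Egr2 then passed in limma (adjusted p = 0.0323) but not with the replicate block in edgeR (0.0629). With the replicate block in edgeR, an alternative chosen after seeing the data, the counts were 129 genes, 1 member, 170 genes and 3 tests. Id2 and the E-protein genes passed under none of these settings. Each group had 4 libraries, and Id1 was too low for a test.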
